A study of Mus musculus with 6 samples.

Results

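The 10 chemokine genes described here are *Cxcl1*, *Cxcl2*, *Cxcl3*, *Cxcl5*, *Cxcl10*, *Cxcl16*, *Cxcl17*, *Ccl2*, *Ccl20* and *Cx3cl1*. They were picked by name, as chemokines that epithelial cells are known to make, from the 47643 gene IDs in the deposited tables, and all 10 were found there. Earlier results of these data were known when the genes were chosen. RNA was taken from mouse submandibular salivary gland organoids (mSGOs), structures that form in Matrigel when the cells of the gland are dissociated and cultured. The glands came from female C57BL/6 mice of 8 to 12 weeks. Organoids of the same 3 mice were harvested on day 5 and on day 7, which gave 3 libraries per day, and replicate numbers are mouse numbers. No library had been irradiated or treated. Both days shared WRY medium, which holds 50% Wnt3a-conditioned and 10% R-spondin1-conditioned medium, 20 ng/ml of EGF and of FGF2, insulin at 10 µg/ml, the ROCK inhibitor Y27632 at 10 µM and dexamethasone at 1 µM. Dexamethasone is a synthetic glucocorticoid, so every library comes from cells under a glucocorticoid, and there was no arm without it.

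Chemokines are small secreted proteins that guide white blood cells by binding G protein-coupled receptors. *Cxcl1*, *Cxcl2*, *Cxcl3* and *Cxcl5* encode ligands of CXCR2, the receptor through which neutrophils are drawn to an inflamed epithelium. In many epithelia these genes are switched on through NF-kB, and their messages are short-lived because AU-rich elements near the 3′ end mark them for decay. *Cxcl10* encodes an interferon-induced ligand of CXCR3 on T cells, *Ccl2* a ligand of CCR2 on monocytes, and *Ccl20* a ligand of CCR6 on dendritic cells and lymphocytes. *Cxcl16* and *Cx3cl1* encode chemokines that are made as membrane proteins and can be shed by proteases. *Cxcl17* encodes a chemokine of mucosal surfaces. In salivary glands, ductal epithelium is a known source of chemokines in inflammation.

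The 3′ kit reads transcript ends, so a count is not divided by gene length and levels of different genes can be set side by side as transcripts. Levels are given in CPM, counts per 1000000 counts in genes after TMM scaling. Library totals lay between 1918198 and 2837397 counts, and 1 count was worth 0.347 to 0.502 CPM. The labels name salivary gland cells. All 10 epithelial markers had counts, and their summed level was 14556 to 18312 CPM at day 5 and 12085 to 16410 CPM at day 7, most of it *Krt5* and *Krt14*. Of these 10, 3 are named because they passed. *Krt19* (log2 fold change 1.78, edgeR adjusted p = 1.56e-05) and *Cldn4* (1.89, edgeR adjusted p = 0.000149) were past the threshold in the higher direction and *Krt8* (-0.65, edgeR adjusted p = 0.0374) in the lower. Their part in the chemokine results was not tested. Many markers of white blood cells were at or near 0, while *S100a8*, *S100a9*, *Ltf* and *Cd68* had counts and are given below. Of 12 macrophage markers 9 had no count in any library, as had 8 of 9 lymphocyte markers and 5 of 9 neutrophil markers, among them *Mpo*, *Elane*, *Camp*, *Ngp* and *Csf3r*. The day 7 libraries lay further apart from each other than those of day 5, with a chi-square per degree of freedom of 12.3 to 19.9 between pairs of day 7 libraries and of 1.99 to 3.24 between pairs of day 5 libraries.

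The 4 CXCR2 ligands lie together on chromosome 5. In GRCm39 the 7 coding genes *Cxcl5*, *Ppbp*, *Pf4*, *Cxcl3*, *Cxcl15*, *Cxcl1* and *Cxcl2* follow one another on the plus strand within 146612 bases. *Ppbp*, which encodes CXCL7, a further CXCR2 ligand best known from platelets, is no member of the list but sits between *Cxcl5* and *Cxcl3*. The 150 bases before the start of the canonical GENCODE transcript are shown for these 5 ligand genes. Of these, 4 carry the same NF-kB-type sequence, and their day 7 means lay on different sides of day 5. Whether the sequence has a part in that was not tested. Capitals mark matches on either strand to GGGA and CC with 4 unspecified bases between them, the general form of an NF-kB site.
Cxcl5 (chr5:90907087-90907236, plus strand): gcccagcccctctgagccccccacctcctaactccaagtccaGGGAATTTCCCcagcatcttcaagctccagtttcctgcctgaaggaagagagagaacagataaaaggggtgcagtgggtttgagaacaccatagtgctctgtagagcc
Ppbp (chr5:90916221-90916370, plus strand): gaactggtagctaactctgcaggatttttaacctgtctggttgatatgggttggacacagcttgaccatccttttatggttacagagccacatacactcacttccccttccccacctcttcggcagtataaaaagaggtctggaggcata
Cxcl3 (chr5:90933812-90933961, plus strand): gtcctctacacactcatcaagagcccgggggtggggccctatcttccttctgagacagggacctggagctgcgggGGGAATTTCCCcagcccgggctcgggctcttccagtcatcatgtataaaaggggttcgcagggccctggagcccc
Cxcl1 (chr5:91038944-91039093, plus strand): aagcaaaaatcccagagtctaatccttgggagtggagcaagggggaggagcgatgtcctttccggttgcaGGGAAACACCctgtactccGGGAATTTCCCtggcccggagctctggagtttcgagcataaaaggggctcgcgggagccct
Cxcl2 (chr5:91051580-91051729, plus strand): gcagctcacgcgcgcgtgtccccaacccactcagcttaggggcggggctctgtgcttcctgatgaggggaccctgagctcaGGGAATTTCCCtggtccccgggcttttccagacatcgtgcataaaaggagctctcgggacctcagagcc

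An 11-base run, GGGAATTTCCC, is common to the promoters of *Cxcl1*, *Cxcl2*, *Cxcl3* and *Cxcl5*. It starts at -61, -69, -75 and -108 from the transcript start. *Cxcl1* has a further match, GGGAAACACC, at -80. Windows from 250 bases before to 50 bases after the start were searched on both strands for all 21593 coding genes, and 11 of them (0.0509%) hold the 11-base run. The looser form is common, at 21.7% of these promoters, and 6 of the 10 chemokines have it. *Cxcl10* matches it at -159 and -103, and *Ccl20* at -81. The 4 without a match are *Cxcl16*, *Cxcl17*, *Ccl2* and *Cx3cl1*, and *Ppbp* has none either. An interferon-type element (GAAA, 2 unspecified bases, GAAA), present in 3.83% of all promoters, was found in *Cxcl10* alone among the 10, as GAAAGTGAAA at -213. The AP-1 form TGANTCA, present in 7.11%, was found in *Cxcl10* at -74, and in *Ppbp* as TGAATCA at -198. These matches are descriptions of letters and carry no measurement of binding.

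The 10 genes spanned a wide range of levels, from *Cxcl5*, whose mean over the 6 libraries was higher than that of 84.9% of the genes tested, down to *Ccl20*, which had 1 count in all. At day 5 the order by mean was *Cxcl5* (91.7 CPM), *Cxcl16* (67.6), *Cxcl1* (33.9), *Cx3cl1* (14.3), *Cxcl17* (4.07), *Ccl2* (2.31), *Cxcl2* (2.12), *Cxcl10* (0.807), *Cxcl3* (0.717) and *Ccl20* (0.137). *Cxcl5* and *Cxcl16* overlapped over the mice, while *Cxcl16*, *Cxcl1* and *Cx3cl1* were each separate from the next gene down, and the 6 genes from *Cxcl17* downward each overlapped the next. At day 7 *Cxcl5* (58.6 CPM) and *Cxcl16* (57.5) again overlapped at the top and stood clear of the rest. Below them came *Cxcl17* (19.3 CPM), *Cxcl1* (15.2), *Cx3cl1* (11.2), *Cxcl2* (6.54), *Cxcl3* (4.32), *Cxcl10* (0.822), *Ccl2* (0.755) and *Ccl20* (0), and each of these overlapped its neighbour. *Cxcl17* thus moved from rank 5 to rank 3 by mean.

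**Figure D1:**
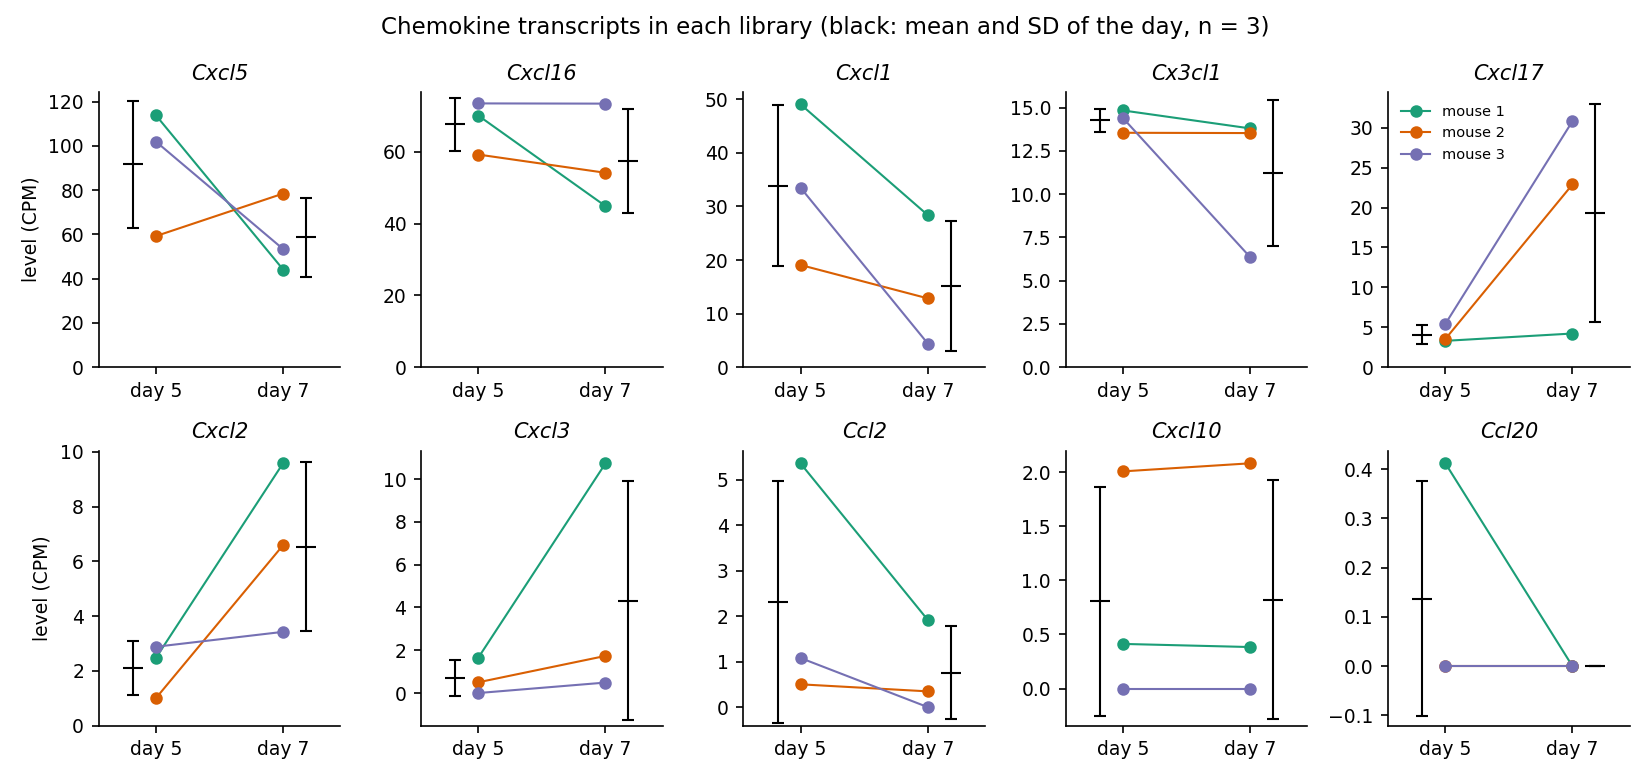
Level of each of the 10 chemokine transcripts in CPM (vertical axis, own linear scale per gene) at day 5 and day 7 for each mouse; black marks give the mean and SD of the 3 libraries of a day. *Cxcl2* is the gene whose day 7 points, from 3.43 to 9.59 CPM, all lie above its day 5 points, from 1.00 to 2.88 CPM, while *Cxcl17* rises steeply in mice 2 and 3 and hardly in mouse 1.

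The comparison of day 7 with day 5 asked which chemokine transcripts change as the organoids grow. *Cxcl17* and *Cxcl2* were higher at day 7 and past the threshold, an adjusted p under 0.05 with a log2 fold change over 0.6 in size. In the lower direction 0 members passed in edgeR and 0 in DESeq2, and 2, *Cxcl1* and *Cxcl5*, had an unadjusted edgeR p under 0.05. Of the 10 genes, 9 passed the filter (a count in 2 or more libraries), so 2 of 9 were past the threshold, against 12.0% of all 15792 genes tested (7.22% higher and 4.82% lower). An unadjusted p under 0.05 was reached by 5 of the 9, *Cxcl1*, *Cxcl2*, *Cxcl3*, *Cxcl5* and *Cxcl17*, and these went in both directions. The median log2 fold change of the 9 was -0.24, against -0.01 over all genes tested. The days did not overlap in 1 of the 10, *Cxcl2*. The background for that count is 30.9% of all genes tested, 15.4% higher and 15.5% lower. In RNA of whole organoids, fewer cells of a type and less RNA per cell cannot be told apart. A fit with a term for each mouse, possible because each mouse gave a library on both days, put 4 members past the threshold (the blocked fit), since *Cxcl3* (higher) and *Cxcl1* (lower) joined them. With DESeq2 the count was 1, and in the fits without 1 library it lay between 0 and 3. It was 0 in edgeR without replicate 1 or 2 of day 5 and without replicate 2 of day 7, where 3, 4 and 4 members had an unadjusted p under 0.05.

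**Figure D2:**
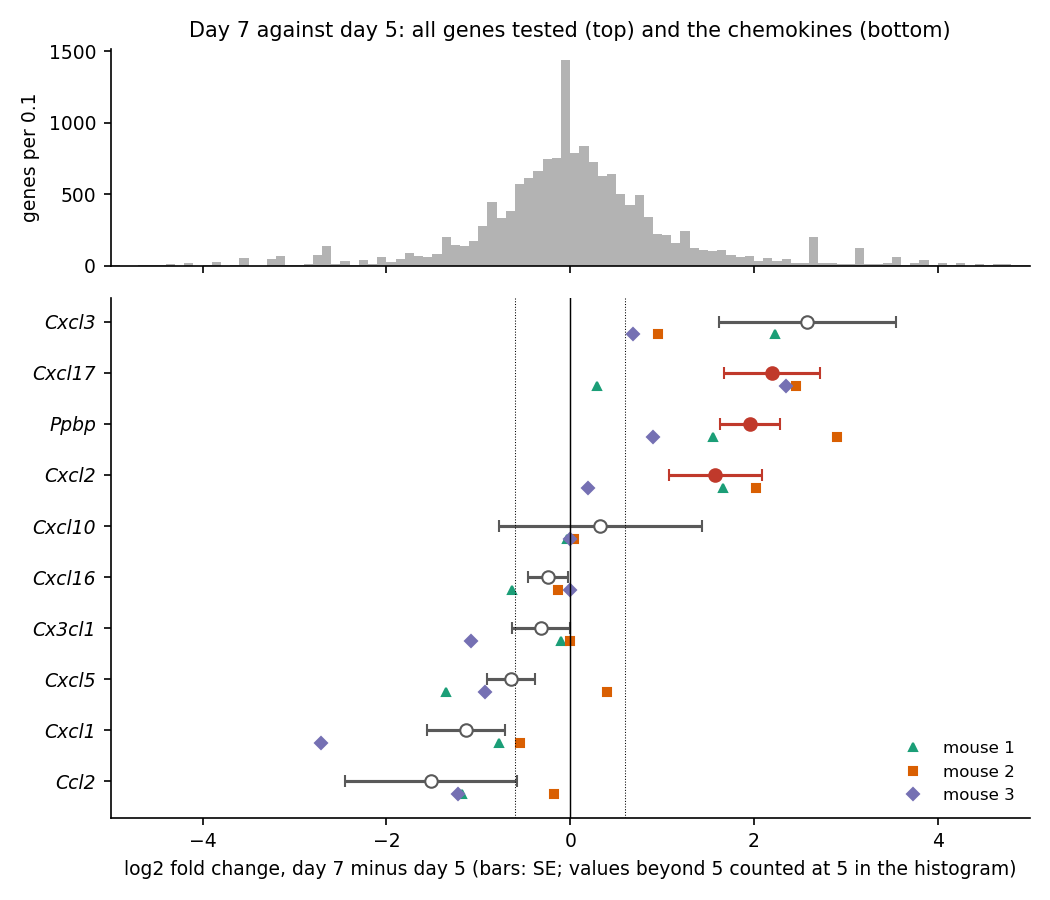
Top, histogram of the log2 fold change of all 15792 genes tested, in bins of 0.1; bottom, the edgeR log2 fold change (circle, bar of 1 SE; filled where past the threshold) of 9 chemokines and *Ppbp*, with the difference within each mouse as a coloured symbol and dotted lines at 0.6 on either side. The chemokines lie on both sides of 0, from -1.51 for *Ccl2* to 2.58 for *Cxcl3*, and the within-mouse symbols of *Cxcl5* fall on both sides of 0.

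*Cxcl5* (ENSMUSG00000029371, GRCm39 chromosome 5, 90907186 to 90909483, plus strand) was the highest member on both days. Its level was 113.8, 59.2 and 101.9 CPM in mice 1, 2 and 3 at day 5, and 44.1, 78.4 and 53.3 CPM at day 7. Mice 1 and 3 were lower at day 7, mouse 2 was higher, and the days overlapped. The means were 91.7 ± 28.7 and 58.6 ± 17.8 CPM (SD, n = 3). The fitted log2 fold change was -0.64 with an SE of 0.26 (95% interval -1.19 to -0.10, edgeR adjusted p = 0.113). It did not pass the threshold. The gene was well counted, with 677 counts at day 5 and 450 at day 7, and the coefficient of variation over mice was 31.3% and 30.3%. Within mice the log2 CPM (prior count of 2) differed by -1.35, 0.40 and -0.92.

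*Cxcl1* (ENSMUSG00000029380, chromosome 5, 91039094 to 91040974, plus strand) is the classic neutrophil chemoattractant of mouse epithelium, also known as KC. It had 49.1, 19.1 and 33.5 CPM in mice 1, 2 and 3 at day 5, and 28.4, 12.8 and 4.40 CPM at day 7. Each mouse was lower at day 7, most of all mouse 3, yet the mice differed enough at each day for the days to overlap. The means were 33.9 ± 15.002 and 15.2 ± 12.2 CPM (SD, n = 3). On the log2 scale edgeR fitted a change of -1.13 with an SE of 0.43 (95% interval -2.03 to -0.24, adjusted p = 0.0940). The blocked fit, with a term for each mouse, gave -1.25 with an SE of 0.29 (edgeR adjusted p = 0.000333) and put it past the threshold. Without day 7 replicate 1, the day 7 library with the highest level, it was -1.91 (edgeR adjusted p = 0.00203) and past it as well. The change was smaller without day 5 replicate 1 (-0.77, edgeR adjusted p = 0.400) and without day 7 replicate 3 (-0.74, edgeR adjusted p = 0.158). It was past the threshold in 3 of 15 alternatives. Over all its alternatives the adjusted p ran from 0.000333 to 0.400.

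*Cxcl2* (ENSMUSG00000058427, chromosome 5, 91051730 to 91053797, plus strand), also known as MIP-2, was at a lower level than its neighbour *Cxcl1* on both days and was past the threshold in the higher direction. Its level was 2.47, 1.00 and 2.88 CPM in mice 1, 2 and 3 at day 5 (6, 2 and 8 counts), and 9.59, 6.59 and 3.43 CPM at day 7 (25, 19 and 7 counts). All day 7 values were above all day 5 values, although mouse 3 moved little, from 2.88 to 3.43 CPM. The means were 2.12 ± 0.988 and 6.54 ± 3.08 CPM (SD, n = 3). The fitted log2 fold change was 1.58 with an SE of 0.51 (edgeR adjusted p = 0.0487). The value stands just inside the threshold and rests on 16 and 51 counts. With 1 library left out it was short of the threshold in 5 of 6 cases, with log2 fold changes of 1.67, 1.29 and 1.86 without day 5 replicate 1, 2 and 3 and of 1.21 and 1.58 without day 7 replicate 1 and 2. It missed it also with DESeq2 (1.60, adjusted p = 0.112), with upper quartile scaling (1.54, edgeR adjusted p = 0.0546) and with library totals only (1.49, edgeR adjusted p = 0.0611), and so was past it in 6 of 14 alternatives. Over its alternatives the adjusted p was 0.00951 to 0.208, and no direction changed.

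*Cxcl3* (ENSMUSG00000029379, chromosome 5, 90933962 to 90937459, plus strand) was close to the limit of detection at day 5, with 4, 1 and 0 counts in mice 1, 2 and 3, and had 28, 5 and 1 counts at day 7. These correspond to 1.65, 0.502 and 0 CPM and to 10.7, 1.74 and 0.489 CPM. Each mouse had more at day 7, but 28 of the 34 day 7 counts came from mouse 1, and the days overlapped. From edgeR the log2 fold change was 2.58 with an SE of 0.97 (95% interval 0.55 to 4.61, edgeR adjusted p = 0.0918), not past the threshold. In the blocked fit it was 2.50 (edgeR adjusted p = 0.0166) and past it. Without day 7 replicate 1 it was 0.74 (edgeR adjusted p = 0.686), and without day 7 replicate 3 it was 3.04 (edgeR adjusted p = 0.0235). Over its alternatives the adjusted p ran from 0.00252 to 0.686.

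The rank of the mice was not the same for these 4 ligands. At day 7 mouse 1 was highest for *Cxcl1*, *Cxcl2* and *Cxcl3*, and lowest for *Cxcl5*. Mouse 3 was lowest at day 7 for *Cxcl1*, *Cxcl2* and *Cxcl3*. The neighbouring *Ppbp* (ENSMUSG00000029372, chromosome 5, 90916371 to 90917930) was the only other ligand with a mean of at least 5 CPM. It had 63.5, 40.2 and 46.1 CPM in mice 1, 2 and 3 at day 5, and 188.7, 305.8 and 87.1 CPM at day 7. Each mouse rose, and the lowest day 7 value was above the highest of day 5. For *Ppbp* edgeR gave a log2 fold change of 1.96 with an SE of 0.33 (edgeR adjusted p = 0.000609), and it was past the threshold under each of the 15 alternatives, with values from 1.47 to 2.30. *Pf4*, the other platelet chemokine of the cluster, had 0, 0 and 1 counts at day 5 and 0, 3 and 1 at day 7.

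Grouped by receptor, a grouping made after the values were seen, the 5 CXCR2 ligand transcripts summed to 178 ± 55.5 CPM at day 5 and 279 ± 128 CPM at day 7 (SD, n = 3). The ranges were 120 to 231 and 149 to 405 CPM, so the sums overlapped. Without *Ppbp* the sum was 128 ± 44.4 CPM at day 5 and 84.7 ± 20.2 CPM at day 7, again with overlap. The shares of the sum did not overlap between the days for 4 of the 5, all but *Cxcl3*. Shares of 1 sum depend on each other, so a larger *Ppbp* share leaves less for the rest. In CPM the days overlapped for *Cxcl5* and *Cxcl1* but not for *Ppbp* and *Cxcl2*. The background for such levels is 30.9% of all genes tested without overlap. *Ppbp* was 28.7% of the sum at day 5 (25.0% to 33.5%) and 67.0% at day 7 (58.6% to 75.4%). *Cxcl5* was 51.3% at day 5 (49.4% to 55.3%) and 23.6% at day 7 (15.7% to 35.9%), and *Cxcl1* was 18.5% (15.9% to 21.3%) and 5.40% (2.96% to 10.1%). *Cxcl2* was 1.16% at day 5 (0.837% to 1.56%) and 2.45% at day 7 (1.63% to 3.41%), and *Cxcl3* had mean shares of 0.378% and 1.52%. These shares are a description of the same counts and were given no test. All 10 members summed to 218 ± 53.0 CPM at day 5 and 174 ± 17.4 CPM at day 7.

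**Figure D3:**
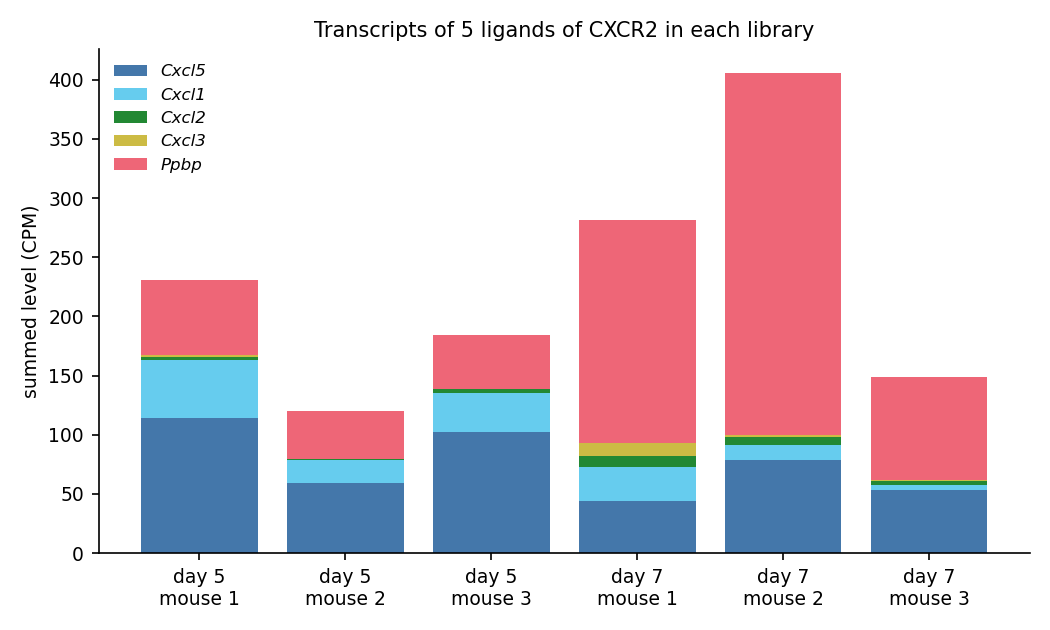
Stacked levels in CPM (vertical axis, from 0) of the 5 transcripts that encode CXCR2 ligands, 1 bar per library. *Cxcl5* and *Cxcl1* make up most of each day 5 bar, whereas *Ppbp* makes up 58.6% to 75.4% of each day 7 bar, and the day 7 bar of mouse 3 is lower than the day 5 bar of mouse 3.

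The AU-rich pentamer ATTTA, a hallmark of short-lived messages, was counted in the annotated 3′ untranslated region of the canonical transcripts. *Cxcl2* has 11 in 734 bases, *Cxcl1* 7 in 592, *Ccl20* 5 in 450 and *Cxcl3* 5 in 645. Per 1000 bases these are 14.99, 11.8, 11.1 and 7.75, against a median of 1.28 over 20718 genes, and 0.444%, 0.845%, 0.980% and 2.43% of genes are as dense or denser. *Cxcl5* has 5 in 1111 bases (4.50 per 1000). *Cxcl17* has 0 in 294 bases, as do 32.5% of all genes, and *Ppbp* has 1 in 572. Of the members past the threshold, *Cxcl2* was the densest of the 10 and *Cxcl17* had no pentamer. The log2 fold change was 1.58 for *Cxcl2* and -1.13 for *Cxcl1*, which is also dense and did not pass. Message decay was not measured, and any part of the pentamer in these changes was not tested.

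*Cxcl17* (ENSMUSG00000060188, chromosome 7, 25099478 to 25112457, minus strand) showed the largest rise among the members past the threshold. It had 3.30, 3.51 and 5.40 CPM in mice 1, 2 and 3 at day 5 (8, 7 and 15 counts), and 4.22, 22.9 and 30.8 CPM at day 7 (11, 66 and 63 counts). Mice 2 and 3 rose steeply, while mouse 1 at day 7 stayed within the range of day 5. The means were 4.07 ± 1.16 and 19.3 ± 13.7 CPM (SD, n = 3), a ratio of 4.74. The fitted log2 fold change was 2.19 with an SE of 0.52 (95% interval 1.10 to 3.29, edgeR adjusted p = 0.00918). Within mice the log2 CPM differed by 0.29, 2.45 and 2.35. It missed the threshold without day 5 replicate 1 (2.05, edgeR adjusted p = 0.0669), without day 5 replicate 2 (2.11, 0.0747), without day 7 replicate 2 (2.03, 0.0724) and with robust = TRUE (2.19, 0.0776), and was past it in the other 11 of 15 alternatives, whose adjusted p went down to 1.04e-07.

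*Cxcl16* and *Cx3cl1*, the chemokines made as membrane proteins, had the smallest log2 fold changes among the 5 members with a mean of at least 10 CPM. *Cxcl16* (ENSMUSG00000018920, chromosome 11, 70344517 to 70352620, minus strand), whose product binds CXCR6, had 70.1, 59.2 and 73.5 CPM in mice 1, 2 and 3 at day 5, and 44.9, 54.1 and 73.4 CPM at day 7. Mouse 3 was the same on both days, mouse 1 was lower at day 7, and the days overlapped. Between the days *Cxcl16* differed by -0.24 on the log2 scale with an SE of 0.22 (95% interval -0.70 to 0.22, edgeR adjusted p = 0.524), so a change of more than 0.70 in either direction lies outside the interval. All of the last 500 bases of *Cxcl16* lie within an exon of *Med11* on the other strand, and *Med11* had 20 to 66 counts per library. Whether reads were counted by strand is not given in the sources used here, so reads of this pair cannot be told apart with certainty.

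*Cx3cl1* (ENSMUSG00000031778, chromosome 8, 95498637 to 95509055, plus strand), which encodes fractalkine, had 14.8, 13.6 and 14.4 CPM in mice 1, 2 and 3 at day 5, and 13.8, 13.5 and 6.36 CPM at day 7. The day 5 values were close together, with a coefficient of variation of 4.61%, and at day 7 mouse 3 alone was low. The fitted log2 fold change was -0.32 with an SE of 0.32 (95% interval -0.98 to 0.34, edgeR adjusted p = 0.563). *Cxcl5* and *Cx3cl1* also overlap an exon of a gene on the other strand in the annotation, *Gm72413* and *1700121C10Rik*, which have no entry in the tables used here.

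The remaining members were near the limit of detection. *Ccl2* (ENSMUSG00000035385, chromosome 11, 81926397 to 81928279) had 13, 1 and 3 counts in mice 1, 2 and 3 at day 5 and 5, 1 and 0 at day 7. Mouse 1 held most of the counts on both days, and the fitted log2 fold change of -1.51 with an SE of 0.93 (95% interval -3.47 to 0.45, edgeR adjusted p = 0.324) did not pass the threshold. It was -0.07 without day 5 replicate 1 and -3.25 without day 7 replicate 1. *Cxcl10* (ENSMUSG00000034855, chromosome 5, 92494497 to 92496748) had 1, 4 and 0 counts at day 5 and 1, 6 and 0 at day 7. Mouse 2 was the highest and mouse 3 at 0 on both days. The log2 fold change was 0.33 with an interval from -1.99 to 2.64 (edgeR adjusted p = 0.894), and 133 of the last 500 bases of its transcript lie in an exon of *Art3* on the other strand. *Ccl20* (ENSMUSG00000026166, chromosome 1, 83094487 to 83096888) had 1 count, in mouse 1 at day 5, and was not tested. A count of 0 at day 7 allows up to 1.04 to 1.47 CPM per library, a limit that covers counting error only. At this depth no difference was detected for *Ccl2* and *Cxcl10*.

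Among the 28 other chemokine ligands listed, 15 had no count in any library, 10 were tested and *Ppbp* was the 1 past the threshold (10.0%, median of the list 0.23). *Ccl25*, a ligand of CCR9, was next in level with 5.00 CPM at day 5 and 4.13 CPM at day 7 and was named after its value was seen. *Cxcl9*, the CXCR3 ligand beside *Cxcl10*, had no count, and neither had *Cxcl12* and *Ccl28*, a ligand known from salivary glands.

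Of 24 receptor genes, 16 had no count, among them *Cxcr4*, and 8 were tested, of which 3 (37.5%) were past the threshold. Their median log2 fold change was 2.03, and placing the 3 genes without a count on one of the days at their bound gave 0.93. The 3 past the threshold, all at low counts, are named because they passed. *Cxcr2*, the receptor of the ligands above, had 1, 5 and 6 counts in mice 1, 2 and 3 at day 5 and 34, 20 and 10 at day 7. All day 7 libraries were above those of day 5, with means of 1.69 ± 1.12 and 8.29 ± 4.24 CPM (SD, n = 3) and a fitted log2 fold change of 2.29 with an SE of 0.54 (edgeR adjusted p = 0.00907). It missed the threshold in 1 of 15 alternatives, without day 5 replicate 1 (1.83, edgeR adjusted p = 0.0732, range over its alternatives from 0.000108). *Gpr35*, once proposed as a receptor of CXCL17, an assignment later disputed, had a single count at day 5 (1, in mouse 3) and 20 at day 7. The ratio was 19.1, with an exact 95% counting interval from 3.06 to 792 (edgeR adjusted p = 0.0173). It was past the threshold in 9 of 14 alternatives. It missed it without day 5 replicate 1 (edgeR adjusted p = 0.0899), without day 5 replicate 2 (0.0826), without day 7 replicate 1 (0.0522), after thinning to the smallest library (0.0729) and with DESeq2 (0.0527), with a range over its alternatives from 0.00410 to 0.0899. *Cx3cr1*, the receptor of fractalkine, had 3, 3 and 5 counts at day 5 and none at day 7, which is at least 3.84-fold lower against a floor of 3 counts over the group (edgeR adjusted p = 0.0258). It was past the threshold in 7 of 14 alternatives. It missed it in the blocked fit (edgeR adjusted p = 0.0790), without day 5 replicate 1 (0.0589), 2 (0.0699) or 3 (0.0859), without day 7 replicate 2 (0.0824) and after thinning (0.0541), and DESeq2 gave no adjusted p, with a range from 0.0158 to 0.0859.

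Since *Cxcr2* is a receptor of neutrophils, the neutrophil markers are set beside it. The summed level of the 9 markers was 121 to 152 CPM at day 5 and 193 to 515 CPM at day 7, and nearly all of it came from *S100a8* and *S100a9*, which squamous epithelium also expresses. *Ly6g* had 1 count in all 6 libraries, and *Mpo*, *Elane*, *Camp*, *Ngp* and *Csf3r* had 0. The 3 neutrophil markers tested all had a positive log2 fold change. *S100a8* was past the threshold (2.16, edgeR adjusted p = 2.49e-05). *S100a9* (0.82, edgeR adjusted p = 0.116) and *Ltf*, with 8 counts at day 5 and 36 at day 7 (2.11, edgeR adjusted p = 0.118), were not. The 12 macrophage markers summed to 0.720 to 1.65 CPM at day 5 and 3.45 to 6.85 CPM at day 7, mostly *Cd68*, with *Lyz2*, *Adgre1*, *Csf1r* and the C1q genes at 0. *Cd68*, the 1 macrophage marker tested, had 7 counts at day 5 and 39 at day 7 and was past the threshold (2.36, edgeR adjusted p = 0.0151). Fibroblast markers went from 10.3 to 17.1 CPM at day 5 to 24.5 to 25.3 CPM at day 7, mostly *Fbln1*. Endothelial markers stayed at 0.825 to 4.60 CPM. Acinar markers were 49.7 to 80.4 CPM at day 5 and 69.8 to 210 CPM at day 7. Most of this was *Slc12a2*, while *Dcpp1*, *Dcpp2* and *Bpifa2* had no count. Of 5 acinar markers tested, 1 was past the threshold. It was *Pip*, with 0, 2 and 1 counts in mice 1, 2 and 3 at day 5 and 1, 24 and 21 at day 7 (3.73, edgeR adjusted p = 0.0143). *Slc12a2* (0.92, edgeR adjusted p = 0.0586), *Chrm3* (0.88, 0.106) and *Aqp5* (0.93, 0.123) were higher and did not pass, and *Bhlha15* had 1 count on each day. The part of these levels in the chemokine results was not tested.

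**Figure D4:**
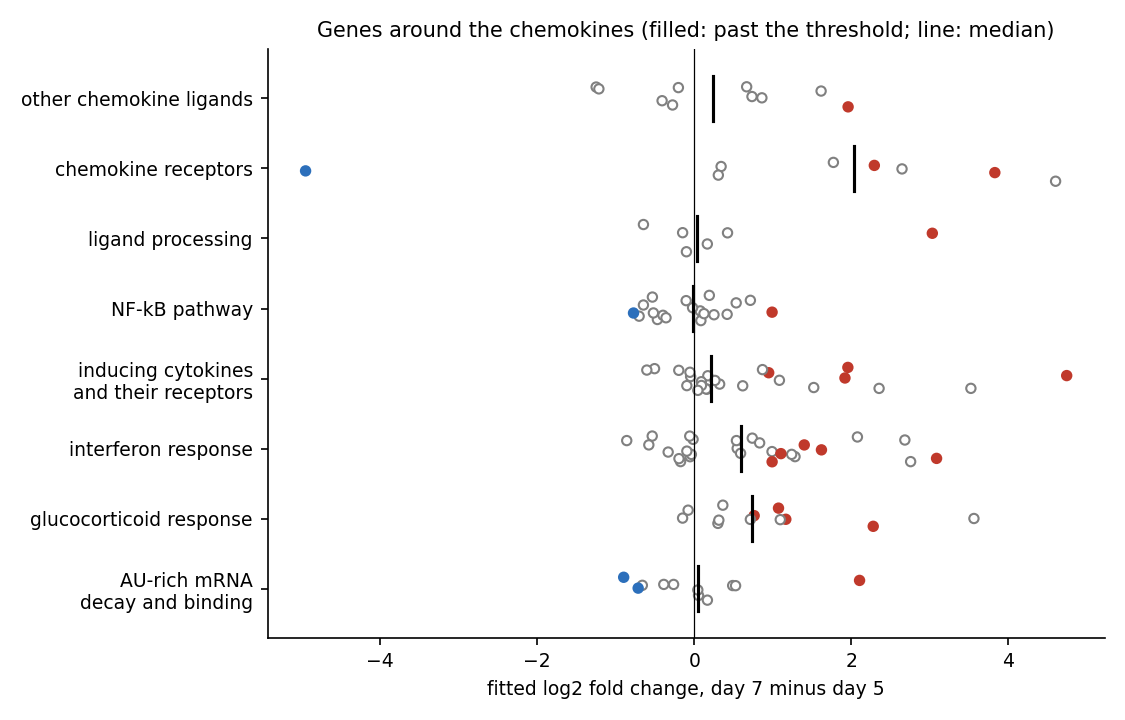
Fitted log2 fold change, day 7 minus day 5, of each tested gene (circle) in 8 lists of genes around the chemokines; filled red and blue circles are past the threshold in the higher and the lower direction, and the black line is the list's median. Genes at 0 in every library of a day, such as *Cx3cr1*, are drawn at their fitted value, which depends on the prior count, and the NF-kB list is centred near 0 with 1 gene past the threshold on each side.

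Genes that act before and after chemokine transcription were then described by list. None of these lists was given a set test, and their counts are to be read against the 12.0% of all genes. For the NF-kB pathway, 2 of 19 genes were past the threshold (10.5%), 1 in each direction, and the median was -0.02. *Bcl3*, a nuclear IkB protein that can activate or repress NF-kB targets, rose from 30.1 to 59.9 CPM (0.99 on the log2 scale, edgeR adjusted p = 0.0109). *Nfkbiz*, which encodes IkB-zeta, a coactivator for part of the NF-kB targets, fell from 63.6 to 37.1 CPM (-0.77, edgeR adjusted p = 0.0448). Both calls were lost in several fits without 1 library, which also have fewer libraries in a day. *Bcl3* missed the threshold without day 5 replicate 1 (1.03), 2 (0.96) or 3 (0.98) and without day 7 replicate 2 (0.80), and *Nfkbiz* without the same libraries (-0.70, -0.91, -0.71 and -0.70), with DESeq2 (-0.78) with filterByExpr (-0.77) and after thinning (-0.86).

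Of 24 tested genes of the cytokines that induce chemokines and their receptors, 4 were past the threshold (16.7%), all higher, and the median was 0.22. *Il33*, an epithelial alarmin, went from 208 to 809 CPM (1.96 on the log2 scale, edgeR adjusted p = 5.74e-06), and *Il36g*, an epithelial cytokine of the IL-1 family, from 5.77 to 21.1 CPM (1.92, edgeR adjusted p = 0.00214). Both were past the threshold in all 15 alternatives. *Il1rap*, the coreceptor shared by IL-1, IL-33 and IL-36, went from 11.5 to 22.0 CPM (0.95, edgeR adjusted p = 0.0416) and missed the threshold in 8 of 15, among them the fits without day 5 replicate 1 (0.97), 2 (1.07) or 3 (0.79) and without day 7 replicate 2 (0.80). The fourth, *Il36b*, named after its value was seen, had no count at day 5 and 10 at day 7 (edgeR adjusted p = 0.0467), and it too missed the threshold in the blocked fit (edgeR adjusted p = 0.136), in each fit without a day 5 library (0.118 to 0.135) without day 7 replicate 1 (0.0826) or 2 (0.117) and after thinning (0.0670), while DESeq2 gave no adjusted p, with a range from 0.0217 to 0.136. Of the classic inducers, some were scarce. *Il1b* had 1 count at each day, *Tnf* 3 and 5, and *Il6* none. *Il1a* had 6, 5 and 5 counts in mice 1, 2 and 3 at day 5 and 22, 27 and 2 at day 7. Its log2 fold change was 1.52 and it did not pass (edgeR adjusted p = 0.101).

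Of 27 interferon response genes, 5 were past the threshold (18.5%), all higher, with a median of 0.59. *Ifi44*, an interferon-induced gene, rose from 1.47 to 13.2 CPM (3.08 on the log2 scale, edgeR adjusted p = 0.000215), and *Ifngr1*, which encodes a chain of the interferon gamma receptor, from 45.2 to 96.7 CPM (1.10, edgeR adjusted p = 0.00370). *Bst2*, which encodes tetherin, rose from 4.10 to 13.0 CPM (1.62, edgeR adjusted p = 0.00890) and was past the threshold in 11 of 15 alternatives, but not without day 5 replicate 1 (1.47) or 2 (1.40), without day 7 replicate 2 (1.55) or after thinning (1.33). The other two, *Irf9* (0.99) and *Isg15* (1.40), were named after their values were seen. *Irf9* missed the threshold without day 5 replicate 1 (0.94) or 2 (0.87), and *Isg15* in each fit without 1 library (1.19 to 1.53) except that without day 7 replicate 3, as well as after thinning (edgeR adjusted p = 0.108), with upper quartile scaling (1.36), with library totals only (1.31) and with DESeq2 (1.41), so it was past the threshold in 6 of 15 alternatives. *Cxcl10*, an interferon target itself, stayed at 5 and 7 counts.

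The glucocorticoid response list had 4 of 12 genes past the threshold (33.3%), all higher, and a median of 0.74. *Errfi1*, a feedback inhibitor of the EGF receptor, went from 9.59 to 46.4 CPM (2.28 on the log2 scale, edgeR adjusted p = 0.000271). *Tsc22d3*, which encodes GILZ, a glucocorticoid-induced protein that restrains NF-kB and AP-1, went from 28.4 to 63.7 CPM (1.17, edgeR adjusted p = 0.00305). Both were past the threshold in all 15 alternatives. *Klf9*, a transcription factor induced by glucocorticoids, went from 130 to 273 CPM (1.07, edgeR adjusted p = 0.00754), and missed the threshold without day 5 replicate 1 (1.04), 2 (1.09) or 3 (1.08) and without day 7 replicate 2 (0.90). *Mt1*, a metallothionein named after its value was seen, rose by 0.76 and missed the threshold without any 1 of the day 5 libraries (0.66 to 0.81) and without day 7 replicate 3 (0.57). Dexamethasone was in the medium on both days, so these values are no comparison with and without it. *Nr3c1*, the glucocorticoid receptor, had 37.5 and 45.99 CPM and did not pass (0.30, edgeR adjusted p = 0.437).

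Among 11 genes whose products bind or degrade AU-rich messages, 3 were past the threshold (27.3%), and the median was 0.04. *Zfp36*, which encodes tristetraprolin, a protein that binds ATTTA-rich messages and speeds their decay, had 19.0, 7.03 and 11.9 CPM in mice 1, 2 and 3 at day 5, and 71.7, 70.1 and 22.0 CPM at day 7. Each mouse rose and the days did not overlap (log2 fold change 2.10, SE 0.39, edgeR adjusted p = 0.00143), and the call held in all 15 alternatives. *Hnrnpd*, which encodes the AU-binding protein AUF1, fell from 208 to 127 CPM (-0.72, edgeR adjusted p = 0.0272), and *Tia1*, a translational repressor, from 32.2 to 17.3 CPM (-0.90, edgeR adjusted p = 0.0368). *Hnrnpd* missed the threshold without day 5 replicate 1 (-0.62), 2 (-0.72) or 3 (-0.81), without day 7 replicate 2 (-0.64) and after thinning (-0.67), and *Tia1* without day 5 replicate 1 (-0.75) or 3 (-0.80) and without day 7 replicate 2 (-1.01). *Zfp36l1* (168.7 and 175.1 CPM), a close relative of *Zfp36* at a higher level, did not pass (0.05, edgeR adjusted p = 0.909).

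The proteases that shed CXCL16 and fractalkine were well expressed. *Adam10* had 141 CPM at day 5 and 158 CPM at day 7 (log2 fold change 0.17, edgeR adjusted p = 0.614), and *Adam17* 174 and 156 CPM (-0.15, edgeR adjusted p = 0.747). Of the 6 genes of ligand processing, whose median was 0.03, *Dpp4* alone was past the threshold (16.7%). It encodes a peptidase that trims the amino end of several chemokines, CXCL10 among them, and had 0, 2 and 6 counts in mice 1, 2 and 3 at day 5 and 39, 24 and 9 at day 7. All day 7 libraries lay above those of day 5 (log2 fold change 3.03, SE 0.64, edgeR adjusted p = 0.00403), and this held in all 15 alternatives.

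For the 2 highest members the genes with the most similar course over the 6 libraries were sought among the 8166 genes at 10 CPM or more on average. For *Cxcl5* these were *Map3k7* (Pearson r of log2 CPM 0.965), *Ccdc122* (0.964) and *Ikbkb* (0.960), and 28 genes had an r over 0.9. For *Cxcl16* they were *Rsrc1* (0.985), *Mark3* (0.984) and *Camk4* (0.982), and 116 genes had an r over 0.9. All 6 had lower means at day 7 than at day 5 and none was past the threshold, in any alternative. The points share libraries and depth, and with 6 of them such values are a description only.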

How the data were processed

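The authors prepared poly(A) libraries with the Lexogen QuantSeq 3′ kit from RNA with RIN values over 9, aligned the reads to GRCm39 and deposited whole-number read counts per Ensembl gene ID, 1 table per library, not normalised. The aligner, annotation release, strand setting and treatment of multiply aligned reads are not given in the sources used here. The submitters' processing notes name GRCm39. The 5 closing entries that name no gene were left out. They held 13.7% to 14.4% of reads in the day 5 libraries and 9.12% to 9.74% in those of day 7. The part of this difference between the days in the results was not tested. Names and coordinates came from GENCODE vM39 by ID, which matched 43465 of 47643 IDs (91.2%).

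The 15792 genes that had a count of 1 or more in 2 or more libraries were tested in R 4.3.3 with edgeR 4.0.16 (glmQLFit and glmQLFTest, two-sided, TMM, robust = FALSE, day as the term), after the methods of the study, with Benjamini-Hochberg adjustment over all genes tested. The threshold joined an adjusted p below 0.05 with a log2 fold change above 0.6 in size. P-values rest on the spread over the 3 libraries of each day, with the variance of each gene moderated by that of the other genes. The main fit does not use the pairing by mouse. Intervals are at 95%, and the floor for 0 counts is 3 counts (1.04 to 1.51 CPM). Reads had no molecular identifiers, so counting intervals and floors cover counting error only. The script was tested on simulated data.

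The titles give the mouse of each library, so numbers pair the days by mouse. Their deviations from the day means correlated at 0.14, -0.10 and 0.16 over 8171 genes. The paired fit (a block for each mouse) is reported beside results whose call it moved. Other alternatives were 3 scalings, 2 filters, DESeq2 1.42.0, robust = TRUE, thinning to the smallest library and leaving out each library, 15 in all. Promoters were read from GRCm39 at the start of the canonical GENCODE transcript.

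The members and lists were chosen with earlier results of these data known. The text names the 10 members, other ligands and receptors with a mean of at least 5 CPM, up to 3 genes with the smallest p past the threshold from each other list, and the 3 genes most like each of the 2 highest members. Others are marked as named after their values were seen.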

Additional observations from a re-analysis of the deposited data

How the results depend on the processing

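The count of chemokine members past the threshold (2, both higher) was 1 with upper quartile scaling, with library totals only, with filterByExpr, with DESeq2 and with robust = TRUE, 5 (3 higher, 2 lower) with no filter, and 4 (3 higher, 1 lower) with the mouse as a replicate block. Without 1 library it ranged from 0 to 3. The listed pathway genes past the threshold numbered 23, 15 after thinning to the smallest library, and 9 to 33 without 1 library. Over all genes the count was 1901, 1475 to 2405 under the other alternatives and 797 to 2576 without 1 library. With library totals only, 950 genes were higher and 1008 lower, against 1140 and 761 with TMM, and the median log2 fold change of all genes shifted by -0.09. The cause of these shifts was not tested.

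Of 563 alternative values for 38 single genes, 3 changed direction, all in *Cxcl10*, whose log2 fold change of 0.33 became -0.22 after thinning, -0.33 without day 5 replicate 3 and -1.53 without day 7 replicate 2. Without 1 library it ranged from -1.53 to 1.98. *Cxcl1*, *Cxcl3* and *Cxcl5* passed the threshold with no filter (edgeR adjusted p = 0.00100, 0.00252 and 0.0348), but not *Cxcl5* with the replicate block (-0.64, edgeR adjusted p = 0.0532; between 0.0348 and 0.402 across the other settings). filterByExpr dropped *Cxcl2*, *Cxcl3*, *Cxcl10* and *Ccl2*, so they have no value there. Apart from the calls given in the text, the block changed no call among these 38 genes. Depth is a limit, since 5 of the 10 members had 20 counts or fewer in a day. The count of members past the threshold was 2 after thinning to the smallest library and 0 to 3 without 1 library. A fit without 1 library also has fewer libraries in a day, so spread between mice and sample size cannot be told apart there.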
